A study of Mus musculus with 8 samples.

Results

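MicroRNAs (miRNAs) in the medium of a mixed muscle cell co-culture were set against the midpoint of 2 pure co-cultures. For each miRNA the contrast was the mean log2 level of the 3 mixed arrays minus the average of the means of the pure groups. All 8 arrays of the series entered it, and 538 miRNAs were tested, out of 1881 from mouse that the array reads. A contrast of 0 says that the mixed medium lay halfway between the pure ones, a value above 0 that it lay nearer to or beyond the higher one, and a value below 0 that it lay nearer to or beyond the lower one.

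The cells were primary myocytes from posterior limb muscle of newborn mice, 1 to 3 days old and labelled male. Every group carried a human SOD1 transgene. The WT cells came from B6SJL(Tg-SOD1)2Gur/J mice, which overexpress the wild-type human protein, and the G93A cells from B6SJL(Tg-SOD1*G93A)1Gur/J mice, a model of amyotrophic lateral sclerosis (ALS). Both colonies were kept by breeding hemizygous males with B6SJLF1/J females, and cells without a transgene were not analysed here. Groups are written as bottom chamber/insert: WT/WT (2 arrays), G93A/WT (3 arrays, the mixed co-culture) and G93A/G93A (3 arrays). The bottom chamber received 2.5 and the insert 1.5 (in 1e5 cells), the pores between them measured 0.4 µm, no agent was added, and medium was taken at 2 days in vitro. The mixed co-culture thus held more G93A than WT cells, while the midpoint gives the pure groups equal weight. The samples are called biological replicates, but no litter, culture or batch is named for them, so p-values measure the spread between these samples. In medium, fewer cells of a type and less RNA released per cell cannot be told apart, and bovine or equine miRNAs of the serum that share a mouse sequence would be read by the same probe.

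A miRNA is a single strand of RNA that a protein complex uses to find matching messenger RNAs, mainly through its bases 2 to 8, the seed. The strand is cut from a hairpin, either from its 5′ arm (5p) or its 3′ arm (3p). Cells release miRNAs in vesicles and bound to proteins, and skeletal muscle is known for miR-1, miR-133 and miR-206, which act in the growth and differentiation of muscle cells. Mouse miRNAs with numbers of 1000 and above were mostly annotated from sequencing of small RNA, among them a class spliced from short introns, and few of them have a described function.

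The sequences of 8 miRNAs that were higher than the midpoint in mixed medium are shown first, because most of them were seen in no pure medium. Capitals mark the seed, and each strand is written 5′ to 3′ from the RefSeq table of build GRCm38.p6.
miR-1945: uCUUCGCGgguacugucgggac
miR-7009-5p: uUGGGGUCaggggaccagagcu
miR-682: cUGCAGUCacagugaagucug
miR-452-5p: uGUUUGCAgaggaaacugagac
miR-411-5p: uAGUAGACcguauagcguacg
miR-28a-5p: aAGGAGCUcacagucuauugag
miR-450a-2-3p: aUUGGGGAugcuuugcauucau
miR-6907-5p: uUCUGGGAcacagggaggcucg

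The 8 miRNAs below were lower than the midpoint in mixed medium, with the seed again in capitals. They include the 3 largest differences and the pair that was lower than each pure group by test. Also shown is miR-3095-3p, one of the brightest of the lower miRNAs.
miR-6370: gCAGGAACagcaaaggggaag
miR-883a-5p: uGCUGAGAgaaguagcaguuac
miR-882: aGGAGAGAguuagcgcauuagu
miR-5113: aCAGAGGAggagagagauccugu
miR-3095-3p: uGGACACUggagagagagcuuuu
miR-6946-5p: aAAAGGGAgagaaagaaaugc
miR-6960-5p: cAGGAUGAgaagaguuuggcug
miR-6947-5p: cAUCCAGUggagaggcucgug

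Several of these have a known neighbourhood in the genome (GRCm38.p6). miR-411-5p (chr12:109710190-109710210, plus strand) and miR-882 (chr12:109682207-109682228, plus strand) belong to the imprinted Dlk1-Dio3 locus, and neither lies in the span of a protein-coding gene of the RefSeq table. miR-452-5p (chrX:72262271-72262292, minus strand) lies within the span of Gabre, a GABA receptor subunit gene. miR-28a-5p (chr16:24827868-24827889, plus strand) lies within Lpp, miR-5113 (chr15:80940049-80940071, plus strand) within Tnrc6b, and miR-7009-5p (chr3:36475498-36475519, minus strand) within Anxa5. miR-1945 (chr16:11254381-11254402, minus strand) and miR-682 (chr13:75645119-75645139, plus strand) lay in no such span. Spans were read on either strand and for protein-coding genes only, and exon and intron were not told apart. Of the 16 higher miRNAs with a sequence 12 lay in such a span (75%), and of the 20 lower ones 16 (80.0%), beside 62.7% of all 453 tested miRNAs with a sequence and 82.9% of those numbered 1000 or above.

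The mixed medium departed from the midpoint for 40 of the 538 miRNAs (7.43%; limma with Benjamini-Hochberg adjustment over all 538, threshold 0.05), 18 of them higher (3.35%) and 22 lower (4.09%). The higher ones were mostly faint miRNAs, and 11 of the 18 were detected in no pure medium. These 11 passed the filter, detection on at least 2 arrays, only through the mixed arrays, where they are high. Of 12 miRNAs detected on all 3 mixed arrays and on no pure one, 11 were called, so these calls restate the pattern of detection. The lower ones were detected on all 8 arrays in 22 of 22 cases and differed by smaller amounts, the median contrast being -0.56 against 1.03 for the higher ones. Over all 538 miRNAs the median contrast was 0.06, and for 155 the p before adjustment was under 0.05. The median standard error (SE) was 0.14, and for 400 miRNAs the 95% interval of the contrast lay within 1 log2 unit of 0 on either side. The count depended on single arrays: it was 23 when G93A/WT 2 was left out, 25 when G93A/G93A 2 was, and 82 when G93A/G93A 3 was.

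**Figure D1:**
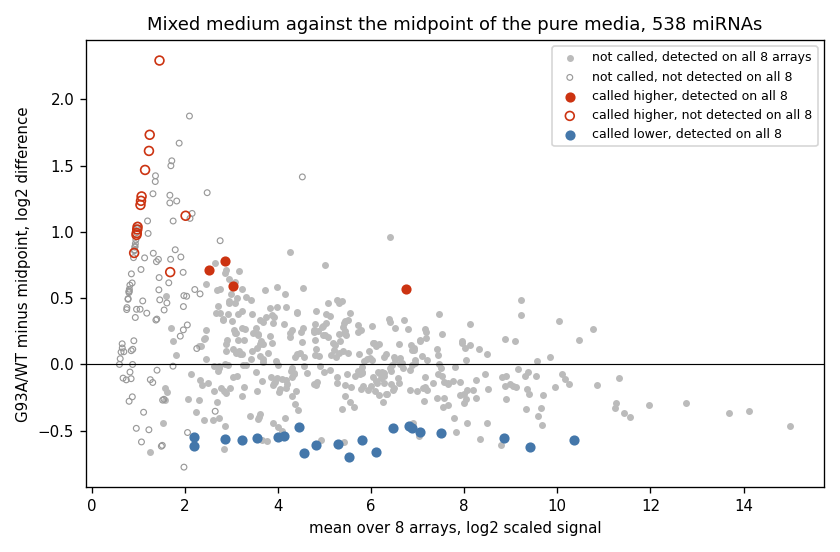
Contrast of the G93A/WT mean with the midpoint of the pure means (y axis, log2 difference) against the mean over all 8 arrays (x axis, log2 scaled signal) for 538 miRNAs, 1 point each, filled where detected on all 8 arrays. The 22 called lower (blue) have mean levels from 2.20 to 10.35, while 14 of the 18 called higher (red) are faint and not detected on every array.

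The mixed arrays also detected more miRNAs. The mixed arrays detected 497, 563 and 520 mouse miRNAs, the WT/WT arrays 450 and 461, and the G93A/G93A arrays 483, 451 and 476. The mixed arrays all lay above the pure ones, and the contrast was 63.9 miRNAs (exact permutation test over 560 assignments, 2-sided, p = 0.00357; 0.00804 after adjustment over 3 such measures; smallest possible p 0.00179). The mixed arrays were brighter as well, with scale factors of 0.933, 0.593 and 0.755 against 0.973 to 1.44 on the pure arrays (contrast of the log2 factor -0.69, same exact permutation test, p = 0.00536, adjusted 0.00804). After scaling, a bright array can show fainter miRNAs: the lowest detected signal on the log2 scale was 0.57, -0.19 and 0.18 on the mixed arrays and 0.57 to 0.98 on the pure ones. The part of brightness in the higher calls was not tested, and all higher values below are read against those limits. Whether the detection counts follow the medium or the brightness of the arrays cannot be told apart. On the slide the mixed arrays shared row 1 with WT/WT 1, while WT/WT 2 and all G93A/G93A arrays lay in row 2.

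**Figure D2:**
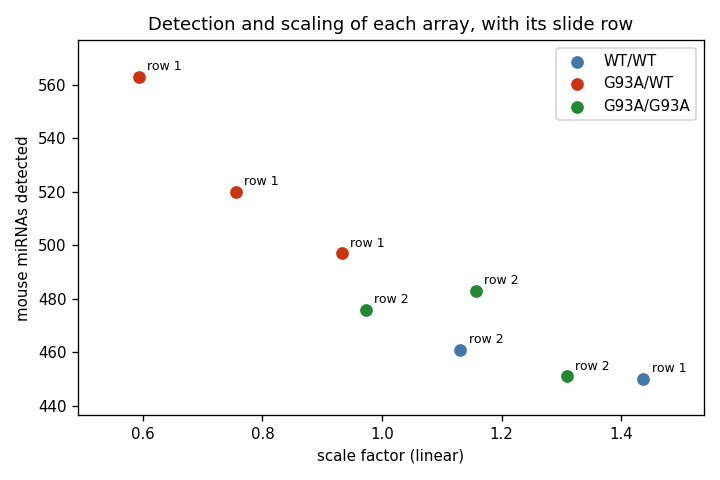
Number of mouse miRNAs detected (y axis) against the scale factor of the array (x axis, linear; a small factor means a bright array), 1 point per array with its slide row beside it. The 3 mixed arrays detect 497 to 563 miRNAs and have the smallest factors, and the 5 pure arrays detect 450 to 483.

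For miRNAs that differed from both pure groups in the same direction, the mixed medium lay outside the range of the pure ones. By that rule 11 miRNAs were higher (2.04% of 538) and 2 were lower (0.372%). On single arrays, without a test, all 3 mixed arrays lay above all 5 pure ones for 36 miRNAs (6.69%) and below them for 47 (8.74%). The 11 higher ones were miR-1945, miR-7009-5p, miR-682, miR-452-5p, miR-411-5p, miR-6391, miR-28a-5p, miR-133a-5p, miR-6990-5p, miR-450a-2-3p and miR-6907-5p, and of these only the last was detected on all 8 arrays. The count of 13 was 6 without WT/WT 1, 8 without WT/WT 2, 25 when G93A/WT 1 was left out and 34 when G93A/G93A 3 was. In the authors' processed values limma put 4 miRNAs outside the range and none of these 13, and among miRNAs detected on all 8 arrays alone, 0.

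miR-1945 showed the largest contrast of the called miRNAs. Its log2 level was 3.11, 2.93 and 2.64 on the mixed arrays, and it was undetected on all 5 pure arrays, where values stand at the floor of 0.60. The mixed level was 4.30-fold above the lowest detected signals of the WT/WT arrays and 4.49-fold above those of the G93A/G93A arrays. This ratio sets the mixed mean against the mean, over the pure arrays, of the lowest signal detected for any miRNA. The signal of an undetected miRNA is not given and can lie above that value, so the ratio is no lower bound. The fitted contrast was 2.29 ± 0.12 (SE; limma, adjusted p = 0.000128), which depends on the floor and is no bound. Where 5 values stand at the floor they have no spread, so the SE rests on the 3 mixed arrays, and the adjusted p-values of such miRNAs are smaller than fully measured values would give.

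miR-682, described in the proliferation of muscle progenitor cells, had log2 levels of 2.37, 2.14 and 2.20 in mixed medium. It was undetected on both WT/WT arrays and reached 0.76 on 1 G93A/G93A array. All 3 mixed arrays stood above all pure ones, and their mean was 2.73-fold above the lowest detected signals of the WT/WT arrays. The contrast was 1.61 ± 0.09 (SE), with adjusted p = 0.000128 by limma.

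miR-411-5p, a miRNA of the Dlk1-Dio3 locus, varied little between the mixed arrays, at 1.72, 1.84 and 1.85, and was undetected in pure medium. It was 2.02-fold above the lowest detected signals of the WT/WT arrays and 2.11-fold above those of the G93A/G93A arrays. The contrast was 1.20 ± 0.08 (SE), with adjusted p = 0.000173 by limma. The other arm of the same hairpin, miR-411-3p, was measured on all 8 arrays at 3.18 and 3.05 in WT/WT, at 2.53, 2.26 and 2.29 in G93A/WT, and at 1.79, 2.10 and 1.86 in G93A/G93A. Its 3 groups did not overlap and the mixed mean lay between the pure means, with a contrast of -0.16 ± 0.11 (SE) that did not pass (limma, adjusted p = 0.377).

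miR-133a-5p is the less abundant arm of the hairpin that gives the muscle miRNA miR-133a-3p. It was detected on the 3 mixed arrays only, at 1.71, 1.52 and 1.54. Their mean was 1.74-fold above the lowest detected signals of the WT/WT arrays and 1.82-fold above those of the G93A/G93A arrays. The contrast was 0.99 ± 0.08 (SE), with adjusted p = 0.000609 by limma. miR-133a-3p was far brighter, at 8.96 and 8.93 in WT/WT, 9.35, 9.66 and 9.56 in G93A/WT, and 8.28, 9.36 and 9.73 in G93A/G93A. One G93A/G93A array was the lowest and another the highest of all 8, so its mixed and pure values overlapped, and the contrast of 0.49 ± 0.31 (SE) did not pass (limma, adjusted p = 0.324).

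Of the other higher miRNAs undetected in pure medium, miR-7009-5p stood at 2.14, 2.69 and 2.17. Its mean was 2.91-fold above the lowest detected signals of the WT/WT arrays. miR-452-5p was less even, at 2.04, 2.55 and 1.62, with a ratio of 2.42-fold. miR-28a-5p reached 1.78, 1.55 and 1.53, with a ratio of 1.78-fold. miR-450a-2-3p is from an X-linked cluster that also holds miR-322 and miR-503 of muscle differentiation. It reached 1.54, 1.37 and 1.42, with a ratio of 1.57-fold. All of these stood above 0.98, the highest of the lowest detected signals of the pure arrays. miR-8093 and miR-7072-5p passed the contrast, at 1.27 ± 0.25 and 1.23 ± 0.25 (SE; limma, adjusted p = 0.0237 and 0.0253), but not the test against WT/WT (adjusted p = 0.0611 and 0.0653), and G93A/WT 2, the brightest array, was the highest for both.

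Among miRNAs measured on all 8 arrays, 4 were called higher. miR-6907-5p, the only one that differed from both pure groups, stood at 2.39 and 2.25 in WT/WT, 3.08, 2.99 and 2.89 in G93A/WT, and 2.10, 2.13 and 2.43 in G93A/G93A (contrast 0.71 ± 0.11, SE; limma, adjusted p = 0.0117). miR-714 was the one well above the faint range, at 6.65 and 6.64, then 7.23, 7.09 and 7.05, then 6.40, 6.60 and 6.39 in the same order of groups. Its mixed arrays all lay above its pure ones, by 0.48 over WT/WT (adjusted p = 0.0573) and 0.66 over G93A/G93A (adjusted p = 0.00603), with a contrast of 0.57 ± 0.09 (SE; limma, adjusted p = 0.0117). miR-7015-5p (0.78 ± 0.17) and miR-5132-5p (0.59 ± 0.12) were the other two.

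**Figure D3:**
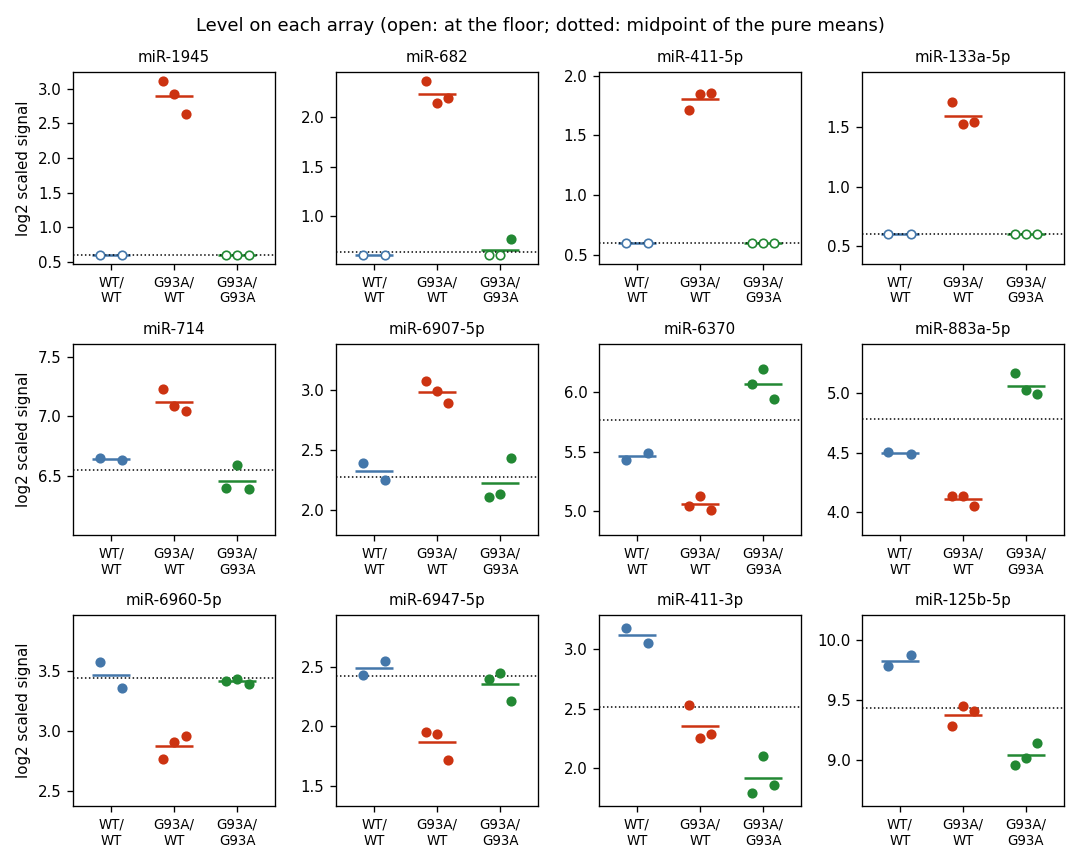
Log2 scaled signal (y axis) of 12 miRNAs on each array, by group, with the group mean as a bar, values at the floor as open points and the midpoint of the pure means as a dotted line; each panel has its own y range. The first 6 panels show miRNAs called higher, the next 4 miRNAs called lower, and the last 2 (miR-411-3p and miR-125b-5p) miRNAs whose mixed mean lay between the pure means.

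The 22 lower miRNAs had every mixed array below every pure array. Their calls were lost in other fits: 0 of the 22 passed with the slide row as a block or with the log2 scale factor as a covariate, and 2 (miR-6370 and miR-883a-5p) with the replicate block. For 7 of them the pure media differed by test as well, with G93A/G93A the higher. Of the 22, 17 carried a number of 1000 or above, beside 248 of the 538 tested.

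miR-6370 stood at 5.43 and 5.49 in WT/WT, 5.05, 5.13 and 5.01 in G93A/WT, and 6.06, 6.19 and 5.94 in G93A/G93A. The groups did not overlap, the contrast was -0.70 ± 0.09 (SE; limma, adjusted p = 0.00572), and the mixed mean of 5.06 was lower than the 6.06 of G93A/G93A (adjusted p = 0.00124), while its distance of -0.40 from WT/WT did not pass (adjusted p = 0.0793). miR-883a-5p, from an X-linked cluster, showed the same order at 4.51 and 4.49, then 4.14, 4.13 and 4.06, then 5.17, 5.03 and 4.99 (contrast -0.67 ± 0.08, SE; limma, adjusted p = 0.00454). miR-882 of the Dlk1-Dio3 locus stood at 5.61, 5.66 and 5.70 in mixed medium, below 5.99 and 6.13 in WT/WT and 6.73, 6.62 and 6.37 in G93A/G93A (contrast -0.66 ± 0.11, SE; limma, adjusted p = 0.0117).

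Bright miRNAs were among them. miR-5113 stood at 9.32 and 9.45 in WT/WT, 8.92, 9.03 and 9.05 in mixed medium, and 9.99, 9.91 and 9.67 in G93A/G93A (contrast -0.62 ± 0.10, SE). miR-3095-3p stood at 10.22 and 10.41, then 9.87, 9.98 and 10.05, then 10.90, 10.84 and 10.54 (contrast -0.57 ± 0.11, SE). In both, the smallest gap between a mixed and a WT/WT array was narrower than the gap to G93A/G93A. miR-423-5p, a ubiquitous miRNA that is often measured in blood, stood at 6.23 and 6.36 in WT/WT, 6.01, 6.19 and 6.22 in mixed medium, and 7.03, 6.99 and 6.83 in G93A/G93A (contrast -0.48 ± 0.10, SE; limma, adjusted p = 0.0237). Its mixed level was within 0.16 of the WT/WT mean (adjusted p = 0.413), while it was lower than G93A/G93A by -0.81 (adjusted p = 0.00315).

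Only miR-6960-5p and miR-6947-5p were lower than each pure group by the tests. miR-6960-5p was at 3.58 and 3.36 in WT/WT, 2.77, 2.91 and 2.96 in G93A/WT, and 3.42, 3.44 and 3.39 in G93A/G93A, lower by -0.59 and -0.54 (limma, adjusted p = 0.0407 and 0.0154). miR-6947-5p was at 2.43 and 2.55, then 1.95, 1.94 and 1.72, then 2.40, 2.45 and 2.21, lower by -0.62 and -0.48 (adjusted p = 0.0479 and 0.0373). For both, the pure groups lay close together, at a difference of -0.06 and -0.14.

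The lower miRNAs shared a short run of bases. GAGA, searched as these 4 letters on the mature strand, occurred in 16 of the 20 lower miRNAs with a sequence (80.0%), in 4 of the 16 higher ones (25%), in 79 of all 453 tested miRNAs with a sequence (17.4%) and in 172 of the 1679 mature mouse miRNAs of the RefSeq table (10.2%). The share among lower calls was 50% with quantile normalization (13 of 26), 44.8% with cyclic loess (13 of 29), 53.8% in the authors' processed values (14 of 26), 36.1% with array weights (26 of 72) and 50% without G93A/G93A 3 (18 of 36). This was noticed after the sequences of the called miRNAs had been seen, so it is a description with no test. In 4 of the 16 the run lay whole within the seed, and no seed was shared: the 20 lower miRNAs had 20 distinct seeds and the 16 higher ones 16. Another 8 lower miRNAs with the run are printed here, now with GAGA and its overlapping repeats in capitals.
miR-6978-5p: aagggguGAGAGAGAagcuggug
miR-711: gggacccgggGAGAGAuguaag
miR-6938-5p: uuggagcuagcuccaGAGAGAgu
miR-423-5p: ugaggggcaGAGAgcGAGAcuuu
miR-7057-5p: cagGAGAggacucaaguu
miR-7084-5p: uagaggauagagguaGAGAgu
miR-30c-2-3p: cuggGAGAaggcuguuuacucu
miR-3059-3p: ccucuagggaaGAGAagguugg

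Of the first set of lower sequences printed above, miR-6370 lacked the run, as did miR-7022-5p, miR-7075-5p and miR-6961-5p. Among miRNAs detected on all 8 arrays, 68 had the run, with a median contrast of -0.16, and 16 of them were called lower (23.5%). The 291 without it had a median contrast of 0.04, and 4 were called lower (1.37%). By number class, the lower calls were 11 of 50 with the run against 4 of 119 without it at 1000 or above. Below 1000 they were 5 of 18 against 0 of 172. GAGA was picked from these same called sequences, so the counts of calls in this paragraph restate that choice. The medians differed below 1000 (-0.24 with the run against 0.12) and not above (-0.09 and -0.09). miRNAs with the run were rich in purines, and 111 of the 359 miRNAs detected on all 8 arrays and with a sequence had 68.0% purines or more. Of these 111, the 66 without GAGA had a median contrast of -0.13, and 2 of them were called lower. Over all 111 the median was -0.13 as well, and 12 were called lower. Purine content and the run cannot be told apart by these calls, from which the run was picked.

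The difference can be read array by array. The median distance from the midpoint of miRNAs with GAGA minus that of miRNAs without it was -0.10, -0.21 and -0.18 on the mixed arrays. It was -0.09 and -0.14 on the WT/WT arrays and 0.21, 0.09 and 0.02 on the G93A/G93A arrays. The mixed and WT/WT arrays overlapped, and the G93A/G93A arrays stood above both. For each miRNA the WT/WT and G93A/G93A means lie equally far on either side of the midpoint by construction. The opposite signs of these groups thus restate the difference between the pure media. In the pure comparison, GAGA occurred in 10 of 18 miRNAs with a sequence that were higher in G93A/G93A than in WT/WT, and in 1 of 24 that were lower. The 10 include miR-883a-5p, miR-6946-5p, miR-6938-5p, miR-7084-5p and miR-423-5p, which are among the lower calls from which the run was picked. They also include miR-7043-5p and miR-7078-5p, which were called higher than the midpoint. With these shared miRNAs and the same pure arrays, the pure comparison is no separate evidence for the run.

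**Figure D4:**
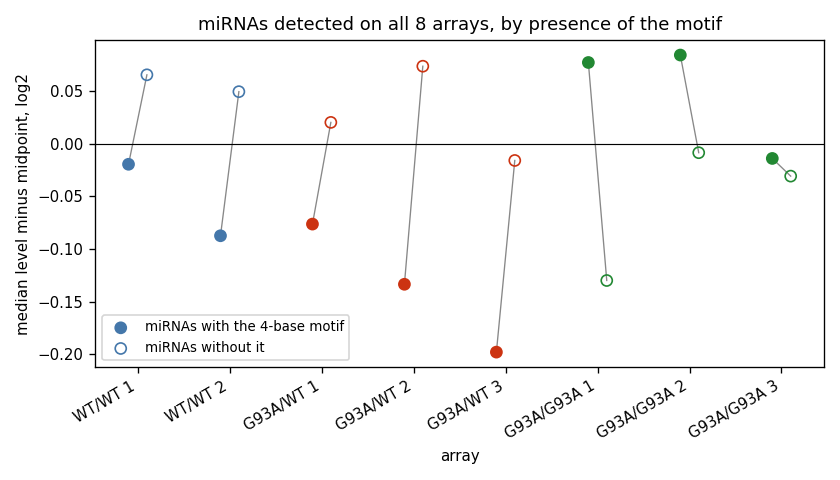
Median distance from the midpoint of the pure means (y axis, log2) on each array for miRNAs detected on all 8 arrays, filled for the 68 that hold the 4-base motif and open for the 291 that do not, coloured by group. On the WT/WT and G93A/WT arrays the filled point lies below the open one, and on the G93A/G93A arrays above it.

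Between the pure media, 46 of the 538 miRNAs differed (8.55%; limma, adjusted p under 0.05), and for these the place of the mixed mean could be given as a position, 0 at the WT/WT mean and 1 at the G93A/G93A mean. The mixed mean lay between the pure means for 35 of them, beyond WT/WT for 8 and beyond G93A/G93A for 3. The median position was 0.40, and 27 of the 46 lay nearer to WT/WT. Of the 31 detected on all arrays, the 17 lower in G93A/G93A had a median of 0.56 and the 14 higher one of -0.08. The remaining positions rest partly on values at the floor. Of the cells seeded in the mixed co-culture, the larger part were G93A cells, and the bearing of this on the position was not tested. For none of the 46 did the mixed level differ by test from both pure groups, so a place strictly between them was not shown for any single miRNA. The position and the contrast use the same arrays and are not separate evidence. The 35 became 6 without WT/WT 1, 20 without WT/WT 2 and 17 without G93A/G93A 2.

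The 2 directions of the pure difference are given apart. Of the 26 miRNAs lower in G93A/G93A, 25 had the mixed mean between the pure means and 0 were called against the midpoint by limma (7 had an unadjusted p under 0.05). Of the 20 higher in G93A/G93A, 10 lay between, 7 lay beyond WT/WT and were called lower, and 3 lay beyond G93A/G93A. The 7 were miR-6946-5p, miR-883a-5p, miR-6370, miR-1966-5p, miR-6938-5p, miR-7084-5p and miR-423-5p, at positions from -0.85 to -0.24. Whether the 2 directions differ was not tested. At the other end, miR-7043-5p (position 1.37) and miR-7078-5p (0.97) were called higher than the midpoint: miR-7078-5p was undetected in WT/WT and stood at 1.80, 2.18 and 2.12 in G93A/WT and 1.72, 2.20 and 2.29 in G93A/G93A.

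**Figure D5:**
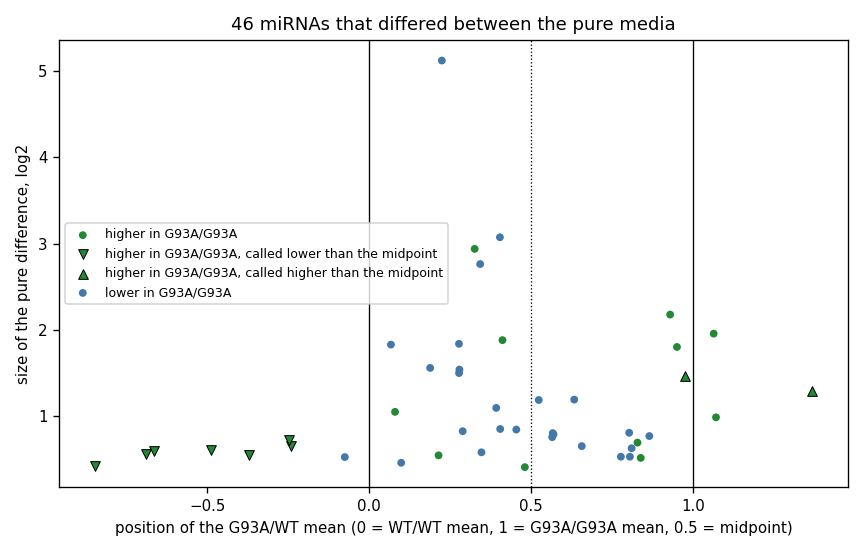
Position of the G93A/WT mean between the pure means (x axis; 0 is WT/WT, 1 is G93A/G93A, dotted line the midpoint) against the size of the pure difference (y axis, log2) for the 46 miRNAs that differed between the pure media, coloured by the direction of that difference. The 7 miRNAs called lower than the midpoint lie left of 0, and all are higher in G93A/G93A.

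Nearest to the midpoint were miR-7080-5p, miR-294-5p and miR-199a-5p. miR-199a-5p, abundant in mesenchymal cells, stood at 6.34 and 6.44 in WT/WT, 6.01, 6.18 and 5.82 in G93A/WT, and 5.65, 5.27 and 5.70 in G93A/G93A. The groups followed each other without overlap, and the contrast was 0.04 with a 95% interval from -0.29 to 0.37. For miR-7080-5p the interval was narrower, from -0.19 to 0.17, around a mixed mean of 4.88 between 4.68 in WT/WT and 5.10 in G93A/G93A. miR-294-5p, at 3.50 and 3.32, then 3.29, 2.64 and 2.43, then 2.26, 2.26 and 2.13, spread over most of the gap in mixed medium, and its interval ran from -0.49 to 0.43.

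Large pure differences were met at other positions too. miR-324-5p fell from 3.61 ± 0.02 (SD, n = 2) in WT/WT over 3.18 ± 0.28 (SD, n = 3) in mixed medium to 2.51 ± 0.23 (SD, n = 3) in G93A/G93A, a position of 0.39. miR-466j rose from 2.27 ± 0.29 over 3.04 ± 0.65 to 4.15 ± 0.49, a position of 0.41 with a wide interval of the contrast, from -0.97 to 0.63. miR-6957-5p stayed near WT/WT, with means of 3.46, 3.54 and 4.51 and a position of 0.08. miR-3070-2-3p, from the Rtl1 region of the Dlk1-Dio3 locus, stood near G93A/G93A instead, with means of 1.92, 2.98 and 2.91.

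Muscle miRNAs held 1 call against the midpoint. Of the 6 muscle-enriched miRNAs tested, miR-133a-5p was called higher and none lower, with a median contrast of 0.06, the same as over all miRNAs (between -0.04 and 0.25 under other scalings that centre the arrays, leaving aside scaling on own detected miRNAs and no scaling). miR-206-3p, specific to skeletal muscle, stood at 11.28 and 11.75 in WT/WT, 11.06, 11.37 and 11.39 in G93A/WT, and 11.28, 11.21 and 11.23 in G93A/G93A, with overlapping groups and a 95% interval of the contrast from -0.43 to 0.22. miR-133b-3p had a contrast of 0.18 ± 0.16 (SE). Both are defining markers of the muscle label and were bright on all 8 arrays.

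Regulators of myoblasts held 1 call among 27 tested, miR-682, and a median contrast of 0.26. Of these 27, 6 differed between the pure media, and the mixed mean lay between the pure means in 6 of 6. Over all miRNAs that differed it did so in 35 of 46, and in 25 of the 26 lower in G93A/G93A. miR-125b-5p, which restrains muscle differentiation, stood at 9.78 and 9.87 in WT/WT, 9.28, 9.45 and 9.41 in G93A/WT, and 8.95, 9.01 and 9.14 in G93A/G93A. Its groups did not overlap, its position was 0.57, and its contrast of -0.05 had a 95% interval from -0.26 to 0.15. miR-23a-3p, at 9.47 and 9.21, then 8.98, 8.87 and 8.93, then 8.69, 8.84 and 8.90, lay nearer to G93A/G93A, with a position of 0.78.

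Of the markers of other cell types, the epithelial ones lay between the pure media. All 5 epithelial miRNAs tested (miR-205-5p, miR-203-3p, miR-429-3p, miR-200b-3p and miR-200c-3p) differed between the pure media, and in 5 of 5 the mixed mean lay between. They were lower in G93A/G93A, and of all 26 such miRNAs 25 lay between, so this place was not particular to them. miR-205-5p stood at 6.99 and 6.77 in WT/WT, 5.54, 5.96 and 5.69 in G93A/WT, and was undetected on 1 G93A/G93A array, with 2.42 and 2.24 on the others. Its position was 0.22 and its contrast 1.41 ± 0.41 (SE), which did not pass (limma, adjusted p = 0.0917). miR-203-3p, at 3.94 and 3.41, then 1.87, 2.92 and 2.51, was undetected in G93A/G93A, as were miR-429-3p, miR-200b-3p and miR-200c-3p. The summed epithelial level was 7.18 to 7.44 in WT/WT, 6.10 to 6.53 in mixed medium and 3.92 to 4.25 in G93A/G93A on the log2 scale, and the other 5 markers of the list were detected on no array. The part of such cells in the other differences was not tested.

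Fibroblast and mesenchymal miRNAs held 0 calls among 8, with a median contrast of 0.34 and 8 of 8 above 0 (5 of 8 when scaled on the median and 7 of 8 with centred number classes). Over all tested miRNAs 297 of 538 were above 0. Erythroid and serum miRNAs (0 of 6 called, median 0.09), leukocyte and platelet miRNAs (0 of 3, 0.17), the endothelial miR-126a-3p (-0.03) and neural miRNAs (0 of 3, 0.19) also held no call against the midpoint. miR-451a, the red cell miRNA, stood at 10.13, 10.22 and 10.33 in mixed medium, against 9.84 and 9.72 in WT/WT and 9.64, 10.15 and 10.28 in G93A/G93A, so the mixed arrays lay above WT/WT and overlapped G93A/G93A. The defining markers miR-145a-5p, miR-144-3p, miR-142a-3p, miR-9-5p and miR-124-3p were detected on no array. By unadjusted p under 0.05, limma gave 3 of the 8 fibroblast and mesenchymal miRNAs and 0 in each of the other lists of this paragraph. The count over all tested miRNAs was 155 of 538.

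In the Dlk1-Dio3 locus, 1 of 48 tested miRNAs was called higher (miR-411-5p) and 1 lower (miR-882), and the median contrast was 0.13. Its brightest members stayed near the midpoint, miR-434-3p at -0.17 ± 0.09 and miR-410-3p at 0.06 ± 0.15 (SE). The let-7 family held 0 calls among 9 (4 with an unadjusted p under 0.05 by limma). let-7b-5p, at 9.11 and 9.38 in WT/WT, 8.59, 8.84 and 8.89 in G93A/WT, and 8.77, 8.90 and 8.79 in G93A/G93A, had a contrast of -0.26 ± 0.11 (SE), and let-7a-5p one of 0.15 ± 0.13. The miR-17-92 cluster and its paralogues held 0 calls among 9 (2 by unadjusted p). Beside these counts stand 155 of all 538 tested miRNAs with an unadjusted p under 0.05 by limma.

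Lists of inflammation (0 of 10 called by limma, 1 by unadjusted p), of miRNAs reported in ALS (0 of 14, 2) and of hypoxia, oxidative stress and p53 (0 of 5, 3) had median contrasts of 0.19, 0.18 and 0.36. Over all tested miRNAs the count by unadjusted p was 155 of 538 and the median contrast 0.06. miR-155-5p, linked to inflammation in ALS, stood at 4.33 and 4.42 in WT/WT, 4.25, 4.28 and 4.36 in mixed medium, and 4.20, 4.34 and 4.29 in G93A/G93A, with a 95% interval of the contrast from -0.22 to 0.16. miR-223-3p of myeloid cells lay near G93A/G93A in mixed medium, at 7.06, 7.11 and 7.19, against 6.74 and 6.63 in WT/WT and 7.04, 7.31 and 7.27 in G93A/G93A (position 0.84). miR-210-3p of the hypoxia response had a contrast of 0.31 ± 0.12 (SE; limma, adjusted p = 0.155).

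The sign of the contrast moved with signal level. With the 538 miRNAs split by mean level into 4 groups of nearly equal size, from faint to bright, the median contrast was 0.46, 0.12, 0.05 and -0.12. Higher calls numbered 14, 3, 0 and 1, and lower calls 2, 5, 7 and 8. Other scalings moved the split of the calls: quantile normalization gave 8 higher and 28 lower, cyclic loess 6 and 32, and the authors' processed values 5 and 28. Scaling on each array's own detected miRNAs gave 102 higher and 0 lower, no scaling 315 and 0, and centring the number classes 19 and 9. Without scaling, the brighter mixed arrays raise every contrast; the median of all was 0.73, and the median of the 22 lower miRNAs was 0.13, below it.

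With the slide row as a block, limma called 4 miRNAs, miR-1945 (2.29), miR-682 (1.61), miR-411-5p (1.20) and miR-8119 (1.81), and 0 lower (22 without the block); 0 lay outside the range of the pure media. With the log2 scale factor as a covariate it called 7, all higher, among them miR-1945, miR-682, miR-411-5p, miR-28a-5p and miR-133a-5p. The sizes changed little in these fits: the median contrast of the 22 lower miRNAs was -0.53 with the row block and -0.55 with the covariate, while the median SE of the 40 went from 0.10 to 0.19 and 0.18. The row effect in such a fit rests on 1 WT/WT array in each row. For miR-1945, miR-682 and miR-411-5p both WT/WT values stood at the floor. Their row effect was thus 0 by construction and their contrasts could not change, so these calls do not test the slide row.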

How the data were processed

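Medium of 8 co-cultures was measured on 1-colour Agilent mouse miRNA arrays, all on 1 slide. Per the file headers, each deposited file holds 1 linear intensity for every miRNA (its total gene signal) and says whether it was detected; undetected miRNAs stand at 0.1. The authors' processed values, an intensity of unstated normalization, served as an alternative. The 75th percentile over 423 miRNAs detected on all arrays was made equal; values were then floored at 1.52 (0.60 as log2), the median of the arrays' lowest detected signals, and put on the log2 scale. The 538 mouse miRNAs detected on at least 2 arrays were tested with limma (version 3.58.1, under R 4.3.3; lmFit, then eBayes, with a common spread for the 3 groups; 2-sided; Benjamini-Hochberg; threshold 0.05), in a script tested on simulated data. A miRNA lay outside the range when it differed from both pure groups in the same direction. The number of arrays limits the precision. Single values per array were compared by an exact permutation test.

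The miRNAs named were the called ones with the largest contrasts (up to 8 in each direction detected on all arrays and up to 6 not), up to 8 outside the range in each direction, of those detected on all arrays that differed between the pure media, the 6 with the largest difference and the 3 nearest to and 3 farthest from the midpoint, and the called and 3 brightest miRNAs of each of 14 lists. Other called miRNAs, miR-8119 and the GAGA run were named after their values or sequences were seen. The comparison, the members and the lists were chosen with earlier results of these data known. Sequences and positions are RefSeq's; miR-714, miR-1966-5p, miR-133a-5p, miR-6957-5p and miR-8108 were not matched.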

Additional observations from a re-analysis of the deposited data

How the results depend on the processing

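The 40 calls against the midpoint kept their sign under the alternatives that scale the arrays (26 of 40 enter when only miRNAs detected on all 8 arrays are used), but their number varied. No scaling leaves the difference in array brightness (contrast of the log2 scale factor -0.69) in every contrast measured on all arrays, so its changes of sign say nothing about single miRNAs. The number of calls was 102 when scaled on each array's own detected miRNAs, 315 with no scaling, 26 over miRNAs detected on all 8 arrays, 17 with no filter, 4 with the slide row as a block, 7 with the log2 scale factor as a covariate and 185 with array weights. With the replicate block 12 were called, with 7 outside the range and 10 between. Same-numbered arrays deviated together in 2 of 7 pairs (r from -0.35 to 0.21). The deviations are from means of 2 or 3 arrays, which ties the r values to each other. Whether the numbers pair the samples thus cannot be decided from them. Leaving out 1 array gave 23 to 82 calls. The 13 miRNAs outside the range became 20 (own detected), 7 (quantile), 58 (no scaling), 4 (authors' processed values), 0 (detected on all 8 arrays), 21 (detected on all arrays of a group), 0 (slide row), 2 (covariate) and 57 (array weights), and 6 to 34 with 1 array left out. The 35 miRNAs between the pure means became 6 (own detected), 9 (no scaling) and 6 (slide row), and 6 to 36 with 1 array left out. Fewer arrays or miRNAs enter some of these fits; otherwise the cause was not tested. An added alternative, a floor at the highest of the arrays' lowest detected signals chosen after seeing the data, gave 42 calls. The difference in median contrast between miRNAs with and without GAGA was taken over those detected on all 8 arrays. It was below 0 in all 28 alternatives, from -0.21 to -0.06. Rescaling whole arrays moves both medians alike. Scaling on the median, on own detected miRNAs or not at all thus had to return the main value, -0.20. Removing the floor and changing the filter returned the same value. In the faintest of the 4 groups by mean level the medians went the other way, 0.81 with GAGA and 0.41 without. Of named miRNAs called with the scaling above or without any, the contrast turned positive without scaling for miR-883a-5p (0.019), miR-882 (0.029), miR-5113 (0.068), miR-7022-5p (0.076), miR-7075-5p (0.080), miR-1966-5p (0.091), miR-3095-3p (0.12), miR-6960-5p (0.12), miR-6946-5p (0.12), miR-6947-5p (0.14), miR-155-5p (0.66), miR-294-5p (0.66) and miR-7080-5p (0.68). Faint signals limit the higher calls, since most of the pure values stand at the floor.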

Other observations

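A pair of control features of the array set WT/WT 1 apart. The feature dmr_3 read 3542 (deposited intensity) on WT/WT 1, against 225 on WT/WT 2 and 368 to 1128 on the other arrays. The feature dmr_6 read 919 on WT/WT 1, against 41.3 on WT/WT 2 and 66.1 to 255 on the other arrays. Neither entered the comparison, and their part in the results without WT/WT 1 was not tested. As deposited, hur_2, hur_6, dmr_285 and dmr_31a read higher on every mixed array than on any pure one. For hur_2 this was 29832 to 39968 against 15788 to 22902. The features hur_1, hur_4, mr_1 and miRNABrightCorner30 overlapped. After scaling, hur_6 stayed higher (314 to 422 against 181 to 302), miRNABrightCorner30 was lower (459 to 629 against 641 to 1231), and the others overlapped. Their part in the detection counts was not tested.

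When the pure groups were weighted by the number of cells seeded per genotype in the mixed co-culture (0.375 for WT/WT and 0.625 for G93A/G93A), 47 miRNAs were called, 24 higher and 23 lower, and 39 of them were among the 40 called against the plain midpoint.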
